A study of Populus sp. cv. 'Okanese' with 18 samples.

Results

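The change between late morning and early evening was described in leaves of well-watered hybrid poplar. The comparison sets the libraries harvested at 16h00 (early evening, EE80, replicates A, B and C) against those harvested at 10h00 (late morning, LM80, replicates A, B and C), all from trees held at 80 % of field capacity (gravimetric soil water content, SWCg). These are 6 of the 18 libraries of the study, whose other groups were held at 50 % or 30 % SWCg and harvested at the same 2 times. The trees were cuttings of the cultivar Populus × 'Okanese', so every group shares one clonal cultivar. They grew in a greenhouse under a photoperiod of 15 h for 42 days, and were then kept at their soil water level for 21 days. The sampled leaf was the first to develop after the water treatment began, and the 80 % level is the control of the water treatment. The sources used here do not say whether replicates were separate trees, so each p-value reflects the variation among libraries, which may be technical. In the main test that variation was estimated over all 18 libraries in their 6 groups, not over the 6 libraries alone. All genes in the table were compared, and 23700 of 31033 had a level that allowed the main test.

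Plants keep time with the circadian clock, a loop of transcription factors that repress one another in turn over the day. Many leaf genes follow the clock, light or the sugars made by photosynthesis, so that a leaf sampled in the morning and again later in the day holds different sets of transcripts. Genes for light harvesting and carbon fixation are among the most abundant transcripts of a leaf. The files pair no gene with a name or function, so apart from 13 clock genes named by the study the genes are described by level, size of change, structure and position.

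Library totals ranged from 17348563 to 48110546 counts, and 25780 to 27067 genes had at least 1 count. Leaf identity was not checked against marker genes, since no gene descriptions were used here. All 9 late-morning libraries of the study carry one sequencing tag in the table's headers and all 9 early-evening libraries another that differs in its last field. The headers do not say whether this field is a run or a lane, and the time of day and the tag cannot be told apart. In a principal component analysis of the 6 libraries the first component held 79.5 % of the variance and separated LM80 (−79.4 to −64.0) from EE80 (69.4 to 80.7). LM80 A stood apart from the other late-morning libraries on the second component (9.0 % of the variance), at −45.4 against 13.5 for LM80 B and 28.0 for LM80 C. EE80 A was at −20.2 on that component, against 12.5 for EE80 B and 11.6 for EE80 C. Both A libraries were thus negative on it, and the B and C libraries positive. Since LM80 A lay furthest out, the main counts, and the results in which LM80 A is singled out, are also given without it.

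About as many of the tested genes were called different between the times as were not. At an adjusted p below 0.05 in edgeR's quasi-likelihood test with Benjamini-Hochberg adjustment, 12283 of 23700 genes (51.8 %) were called. Of these, 6476 (27.3 % of the tested genes) were higher in EE80 and 5807 (24.5 %) were higher in LM80. Without LM80 A, 12023 genes were called, and 11136 of them were among the 12283 with the same direction. Leaving out any other of the 6 libraries gave 10860 to 11400 calls, and the fit to the 6 libraries alone gave 11282. The values of the groups did not overlap for 13786 genes (58.2 %), and 503 of the called genes had overlapping groups. These directions are relative to the other tested genes, because the trimmed mean of M-values (TMM) scaling sets the middle of the genes near 0, where the median log2 fold change was 0.03. With the library totals as the only scaling, an alternative chosen after the data were seen, the median of all tested genes moved to 0.37. Then 11809 genes were higher in EE80 and 2815 in LM80, so that 80.8 % of the called genes were higher in EE80 in place of 52.7 %.

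Most called changes were small, and among called genes the rises in the evening had a larger median than the falls. The median log2 fold change was 0.80 for genes called higher in EE80 and −0.70 for genes called higher in LM80. Rises made up more of the calls among genes of low level, where standard errors were larger and a call needs a larger change. How much of the difference in medians follows from this was not tested. Of the genes higher in EE80, 1709 had a log2 fold change under 0.5 and 2213 one from 0.5 to 1. Among those higher in LM80 the same classes held 2030 and 1877 genes. At the other end, 89 genes rose and 71 fell by 4 or more on the log2 scale, which is 16-fold. A test against a change of 2-fold (glmTreat of edgeR, adjusted p below 0.05) was passed by 2530 genes, which is 20.6 % of the called genes. Among them 1492 (6.3 % of the tested genes) were higher in EE80 and 1038 (4.38 %) in LM80, so that 59.0 % of the large changes were rises. With the library totals as scaling, 2324 passed as higher in EE80 and 662 as higher in LM80.

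**Figure D1:**
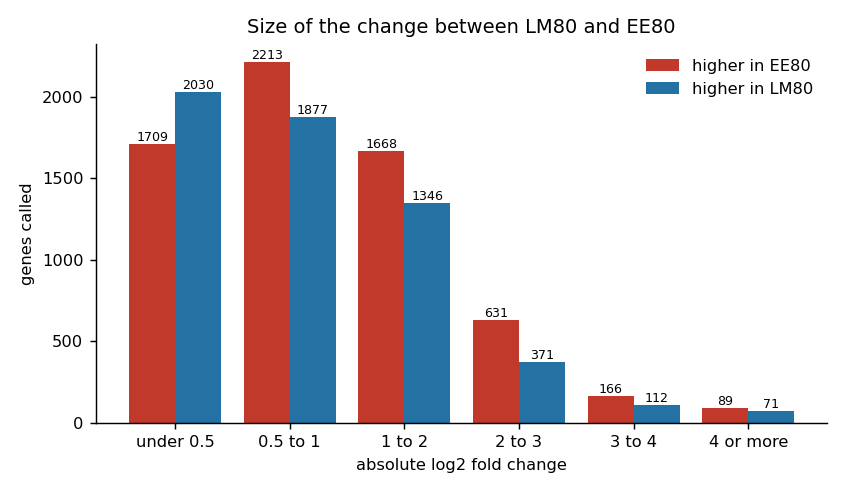
Number of genes called at an adjusted p below 0.05 in each class of absolute log2 fold change between EE80 and LM80 (bars start at 0, numbers above the bars are gene counts). Genes higher in LM80 are the more numerous only in the class under 0.5, with 2030 against 1709, and genes higher in EE80 in the classes above it.

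The test also bounds the genes that were not called. Of the 11417 genes not called, 6101 (53.4 %) had a 95 % confidence interval of the fold change that lay wholly within 1.5-fold in either direction. A further 257 genes had an estimated change of over 2-fold and were not called, and 2006 had groups that did not overlap. The median standard error of a log2 fold change was 0.14.

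The direction of the change went with the level of the gene. Levels are given as CPM, counts scaled to a common total over the tested genes, with the TMM factor, and classes use the average log2 CPM over all 18 libraries. Of the 3148 genes with an average log2 CPM between −2 and 0, 24.0 % were called, and 60.9 % of the called genes were higher in EE80. Between 2 and 4, 55.1 % of 7044 genes were called, with 62.4 % of the calls higher in EE80. The balance turned at higher levels. Of the 2378 genes between 6 and 9, 67.5 % were called, and only 29.2 % of these were higher in EE80 (28.3 to 31.0 % when 1 of the 6 libraries was left out). With the library totals as scaling this last share was 59.96 %, so the direction of most calls at this level depends on the scaling, while it remained below the share over all genes. The median standard error fell from 0.44 in the lowest class to 0.10 in the highest.

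Most of the called genes among the most abundant were lower in EE80 than in LM80, relative to the other genes. The 226 genes with an average log2 CPM of 9 or more lie outside the main test and were tested in a fit with no upper limit, in which 12442 of 23926 genes (52 %) were called. Of the 226, 145 were higher in LM80, 21 were higher in EE80 and 60 were not called, with a median log2 fold change of −0.52 against 0.04 for the other genes of that fit. With the library totals as scaling the numbers were 105 and 52. Their changes reached −6.21 and 5.36 on the log2 scale.

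**Figure D2:**
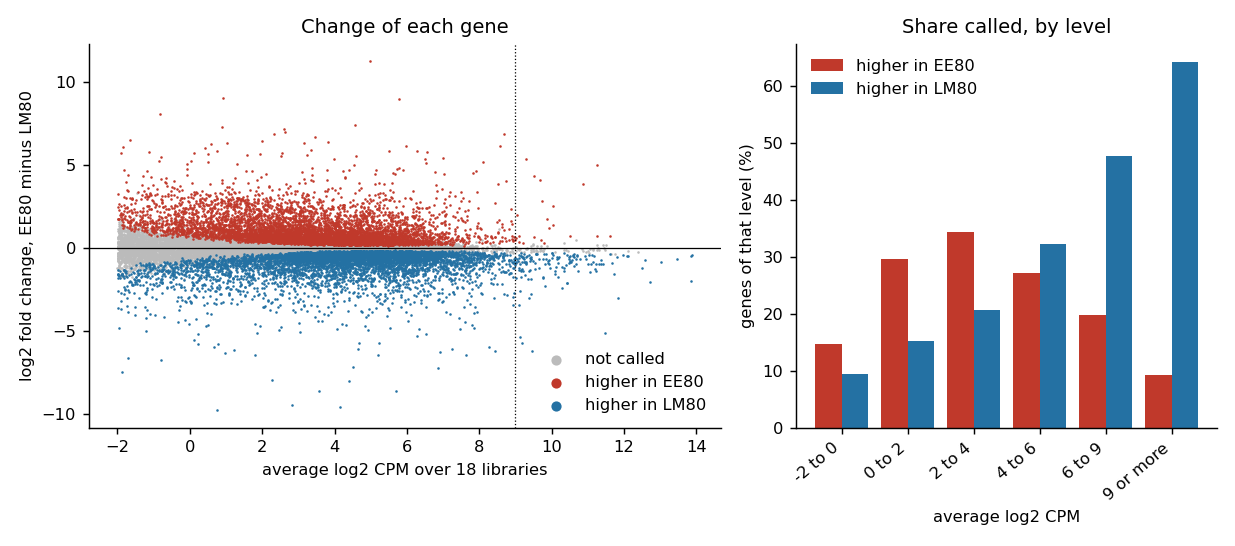
Left, the log2 fold change (EE80 minus LM80) of each gene against its average log2 CPM, with genes right of the dotted line at 9 taken from the fit with no upper limit. Right, the percentage of the genes of each level that were called in each direction (bars start at 0). The calls higher in LM80 gain with level, from 9.37 % of the genes in the lowest class to 145 of 226 genes at 9 or more.

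The same shift is seen in the shares of each library's total count, which the TMM factor does not enter. Such a share is relative to the other genes of its library, as is the scaling by library totals. In LM80 the 226 genes held 40.1 %, 39.9 % and 39.5 % of all counts in replicates A, B and C. In EE80 they held 32.9 %, 33.7 % and 31.5 %. The groups did not overlap, and the difference of −7.12 percentage points had an exact permutation p of 0.1 (two-sided), and no smaller value can be had from 3 against 3 libraries. The 20 highest genes of each library held 15.4 % ± 0.16 (SD, n = 3) of the counts in LM80 and 11.1 % ± 0.52 (n = 3) in EE80, with the same exact p of 0.1. In turn, 11306 to 11420 genes had at least 10 CPM (here of all counts) in the LM80 libraries and 12895 to 13450 in the EE80 libraries. Counts were thus spread over more genes in EE80, at a like number of genes with any count. In all, 21.2 percentage points of the counts lay on other genes in EE80 than in LM80. A set of 79 genes made up 50 % of the fall in shares, while 658 genes made up 50 % of the rise.

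The gene with the largest fall in level and that with the largest rise were both abundant. Potri.010G200500 (P. trichocarpa v4.1, chromosome 10, 19289624 to 19292919, plus strand, 7 exons) was the gene with the largest difference in CPM in the fit with no upper limit. It was at 25671, 25009 and 24992 CPM in LM80 A, B and C and at 6502, 6851 and 5481 CPM in EE80 A, B and C. Each LM80 library was thus far above each EE80 library, with little spread within a time. It fell by 2.01 on the log2 scale (standard error 0.15, edgeR adjusted p = 8.1e-09), and its mean share of all counts went from 2.25 % to 0.704 %. The largest rise in CPM was that of Potri.004G020500 (chromosome 4, 1491008 to 1493835, minus strand, 2 exons). This gene was at 117, 143 and 127 CPM in LM80 A, B and C, and at 4503, 4145 and 3938 CPM in EE80 A, B and C. The log2 fold change was 5.03 ± 0.32 (standard error; adjusted p = 1.3e-09 in edgeR), and the mean share of all counts went from 0.0115 % to 0.471 %. The files and the other sources used here name neither gene.

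Among the clock genes, 12 of 13 were called, 9 higher in EE80 and 3 higher in LM80, against 51.8 % called over all tested genes. The study had shown these genes on these samples, so their direction is not independent evidence. Their levels are given first as CPM per library and are compared between genes only per kilobase of exon (RPKM). Background on each gene is from Arabidopsis.

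CCA1 is a MYB transcription factor that peaks around dawn and represses genes of the evening. Potri.017G144800 (CCA1, chromosome 17, 14519739 to 14523284) was at 194, 212 and 180 CPM in LM80 A, B and C and at 44.0, 52.0 and 45.1 CPM in EE80 A, B and C. It fell by 2.06 on the log2 scale (standard error 0.13, edgeR adjusted p = 8.5e-10). The other copy, Potri.004G074300 (chromosome 4, 6180448 to 6184671), was at 101, 95.8 and 87.3 CPM in LM80 and at 7.41, 4.48 and 5.44 CPM in EE80. It fell by 4.04 on the log2 scale (standard error 0.14, edgeR adjusted p = 1.4e-12), and ranked 23633 of 23700 when genes are ordered from the largest rise to the largest fall.

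The pseudo-response regulators PRR9, PRR7 and PRR5 are repressors of CCA1 that appear one after the other in that order from morning to evening. Of the PRR9 copies, Potri.014G106000 (chromosome 14, 7107684 to 7112847) was at 179, 154 and 151 CPM in LM80 and at 60.3, 65.4 and 67.3 CPM in EE80. It fell by 1.32 (standard error 0.11, edgeR adjusted p = 4.9e-08). Potri.002G179800 (PRR9, chromosome 2, 14117543 to 14123501) was at 149, 156 and 155 CPM in LM80 and at 165, 128 and 155 CPM in EE80, so that its groups overlapped. Its log2 fold change of −0.04 (95 % interval −0.23 to 0.14, edgeR adjusted p = 0.708) leaves room for no change of 1.5-fold, but it was 0.30 with the library totals as scaling (adjusted p = 0.0126).

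PRR7 was also divided between its copies. Potri.010G215200 (PRR7, chromosome 10, 20262808 to 20271048) was at 48.6, 35.9 and 46.5 CPM in LM80 and at 226, 266 and 222 CPM in EE80, a log2 fold change of 2.45 ± 0.13 (standard error; adjusted p = 2.4e-10 in edgeR). The copy Potri.008G046200 (chromosome 8, 2674335 to 2683096) was at 151, 132 and 131 CPM in LM80 and at 191, 189 and 183 CPM in EE80. Its groups did not overlap either, but its log2 fold change was only 0.44 (standard error 0.07, edgeR adjusted p = 8.8e-05). PRR5 rose in both copies. Potri.015G002300 (PRR5, chromosome 15, 112021 to 117679) went from 79.9, 62.7 and 63.7 CPM to 309, 351 and 324 CPM, and Potri.012G005900 (chromosome 12, 173794 to 180376) from 38.9, 28.3 and 26.7 CPM to 795, 765 and 765 CPM. The log2 fold changes were 2.25 (standard error 0.23) and 4.62 (standard error 0.23).

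GI and ZTL act together in Arabidopsis, where the GI protein stabilises ZTL, an F-box protein that receives blue light and directs PRR5 and TOC1 to degradation. Potri.005G196700 (GI, chromosome 5, 20340433 to 20351684) rose from 126, 136 and 130 CPM to 550, 508 and 452 CPM, a log2 fold change of 1.94 (standard error 0.10). The genes named ZTL by the study had some of the largest changes of all genes. That name was not checked here against any sequence or gene description. Potri.008G135200 (chromosome 8, 8997951 to 9001630) was at 0.421, 0.338 and 0.0887 CPM in LM80 A, B and C and at 181, 161 and 166 CPM in EE80. With a log2 fold change of 9.02 ± 0.21 (standard error; adjusted p = 6.0e-14 in edgeR) it ranked as number 3 of 23700 genes by rise. Potri.010G105700 (ZTL, chromosome 10, 12720705 to 12724718) was at 3.74, 1.69 and 1.68 CPM in LM80 and at 143, 130 and 147 CPM in EE80, a log2 fold change of 5.85 (standard error 0.24), number 24 by rise.

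LUX is a DNA-binding member of the evening complex, a repressor that forms around dusk. Potri.001G243600 (LUX, chromosome 1, 26128861 to 26132400, 1 exon) had only 5, 2 and 1 counts in LM80 A, B and C, or 0.234, 0.0752 and 0.0887 CPM. In EE80 it was at 19.5, 14.8 and 19.7 CPM, a log2 fold change of 6.99 ± 0.46 (standard error; adjusted p = 1.9e-09 in edgeR) that was 7.71 without LM80 A. Potri.009G035000 (LUX, chromosome 9, 4518234 to 4521566) went from 4.96, 3.50 and 4.79 CPM to 98.3, 98.6 and 94.5 CPM, a log2 fold change of 4.48 (standard error 0.18). LM80 A was the highest of the LM80 libraries for 8 of the 9 clock genes that were higher in EE80, and without it all 9 were still called in that direction. For those 8 genes its removal widens the gap between the groups, so their calls do not test the rises.

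**Figure D3:**
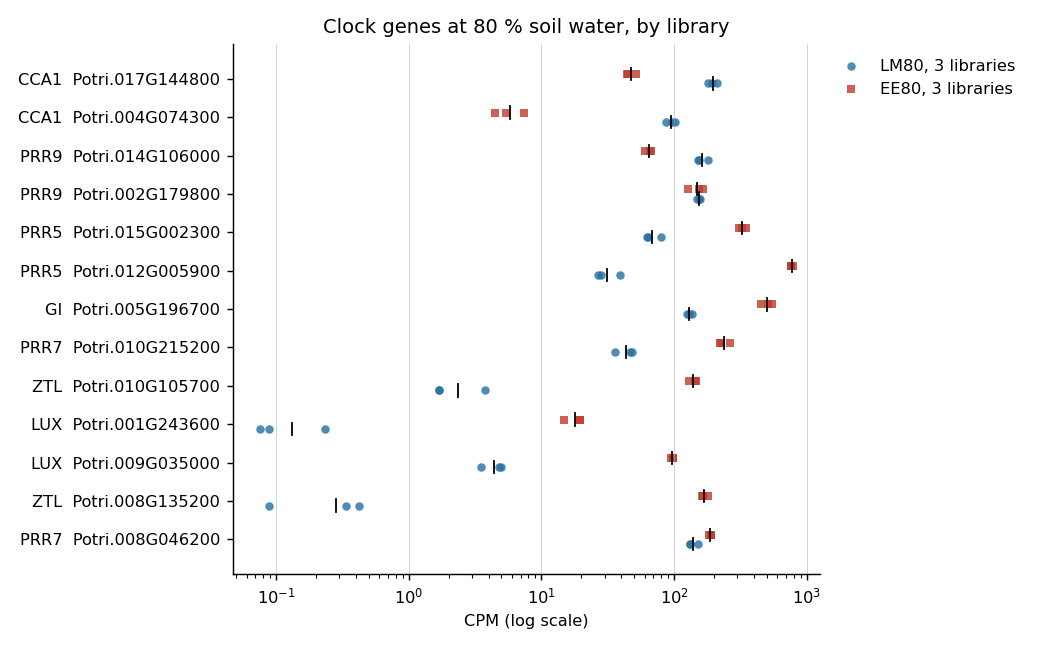
CPM of each clock gene in the 3 LM80 libraries (blue circles) and the 3 EE80 libraries (red squares), on a log axis, with black ticks at the group means. The groups overlap for 1 gene, PRR9 Potri.002G179800, and lie apart for the other 12.

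Copies of 6 clock genes could be compared as the log2 ratio of their levels per kilobase within each library, which is free of the scaling between libraries. In all 6 pairs the ratios of LM80 and EE80 did not overlap, each with an exact permutation p of 0.1 (two-sided, 0.1 also after Benjamini-Hochberg adjustment over the 6 pairs), the smallest possible here. The copy with more transcript per kilobase changed between the times in 4 pairs. For PRR9, Potri.014G106000 against Potri.002G179800 was at a log2 ratio of 0.21 ± 0.17 (SD, n = 3) in LM80 and −1.06 ± 0.24 (n = 3) in EE80. Its lead in LM80 depends on the division by length. In CPM it led in LM80 A (179 against 149) but not in LM80 B (154 against 156) or LM80 C (151 against 155). For PRR5, Potri.015G002300 against Potri.012G005900 went from 1.45 ± 0.11 to −0.94 ± 0.12. For PRR7, Potri.010G215200 against Potri.008G046200 went from −1.48 ± 0.20 to 0.53 ± 0.14. The fourth was the ZTL pair, Potri.010G105700 against Potri.008G135200, which went from 2.73 ± 0.97 to −0.78 ± 0.09, though one copy was close to 0 in LM80. In the CCA1 pair the copy Potri.017G144800 was ahead at both times, by 1.80 ± 0.10 in LM80 and 3.81 ± 0.48 in EE80. In the LUX pair Potri.009G035000 was ahead at both, as the ratio of Potri.001G243600 to it was −5.68 ± 0.72 in LM80 and −2.89 ± 0.25 in EE80. The LM80 ratio rests on only 5, 2 and 1 counts of Potri.001G243600 in LM80 A, B and C.

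Across the 13 clock genes the order of levels per kilobase differed between the times. CCA1 Potri.017G144800 led in LM80 at 83.7 RPKM, followed by PRR9 at 54.5 RPKM (Potri.014G106000) and 47.0 RPKM (Potri.002G179800) and by PRR7 Potri.008G046200 at 42.3 RPKM. In EE80 PRR5 Potri.012G005900 led at 194 RPKM, followed by GI Potri.005G196700 at 104 RPKM and PRR5 Potri.015G002300 at 101 RPKM, a gap within the spread of GI over its libraries. CCA1 Potri.017G144800 was then at 20.1 RPKM, number 11 of the 13.

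The strongest rises and falls over all tested genes are described next. By the rule for named genes (called, groups apart, a mean of at least 10 CPM over the 6 libraries), the 10 largest rises had log2 fold changes of 5.92 to 11.3 and mean levels of 0.0451 to 15.7 CPM in LM80 and 20.2 to 1129 CPM in EE80. One of the 10 was Potri.008G135200, named ZTL by the study. At their head was Potri.015G140800 (chromosome 15, 14748257 to 14750269, plus strand, 3 exons), which had 1, 0 and 1 counts in LM80 A, B and C and 1335, 1240 and 3133 counts in EE80 A, B and C. The ratio of its summed counts, each over its group's library totals, was 3848 with an exact (Clopper-Pearson) interval for counting error of 1065 to 31784. Its fitted log2 fold change of 11.3 (edgeR adjusted p = 1.8e-13) depends on the prior count, and was 10.5 without LM80 B. The 10 largest falls had log2 fold changes of 6.45 to 9.56 in size, and mean levels of 33.0 to 1089 CPM in LM80 and 0.0773 to 12.3 CPM in EE80. The same 10 genes were at −8.14 to −4.69 between the times at 50 % SWCg and at −7.26 to −4.52 at 30 % SWCg. Potri.004G187450, at −9.56 here, was at −5.10 and −5.77 there. Not all were smaller there, as the −8.14 belongs to the gene with the 6.45. The genes were picked as the largest at 80 % SWCg, and smaller values elsewhere can follow from that rule.

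The largest falls differed from the largest rises in their spread between late-morning libraries. Potri.004G187450 (chromosome 4, 20029594 to 20030408, minus strand, 1 exon) had the largest fall, and was at 13.7, 64.6 and 339 CPM in LM80 A, B and C and at 0.0720, 0 and 0.296 CPM in EE80 A, B and C. The groups lay apart, but LM80 C was well above LM80 B and LM80 B well above LM80 A. Its log2 fold change of −9.56 ± 1.38 (standard error; adjusted p = 1.9e-05 in edgeR) was −7.76 without LM80 C, −11.5 without EE80 C and −10.1 without LM80 A. Among the 10 largest falls LM80 A was the lowest LM80 library for 10 and LM80 C the highest for 9. These are not 10 separate places in the genome. Some lie close together on chromosome 4 (20023900 to 20030408), and others on chromosome 9 (11685504 to 11688609). Without LM80 A all 10 were still called, with log2 fold changes of −10.1 to −6.53. Since that library held the lowest LM80 value of each, its removal widens the gap, and these calls do not test the falls. A fit without LM80 C is given for Potri.004G187450 only. The highest LM80 library was a median of 7.96 times the lowest in these 10 genes, against 2.36 times in the 10 largest rises, where LM80 is the group at the low end. For EE80 the medians were 3.12 times for the falls and 1.29 times for the rises. What sets these libraries apart was not tested.

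**Figure D4:**
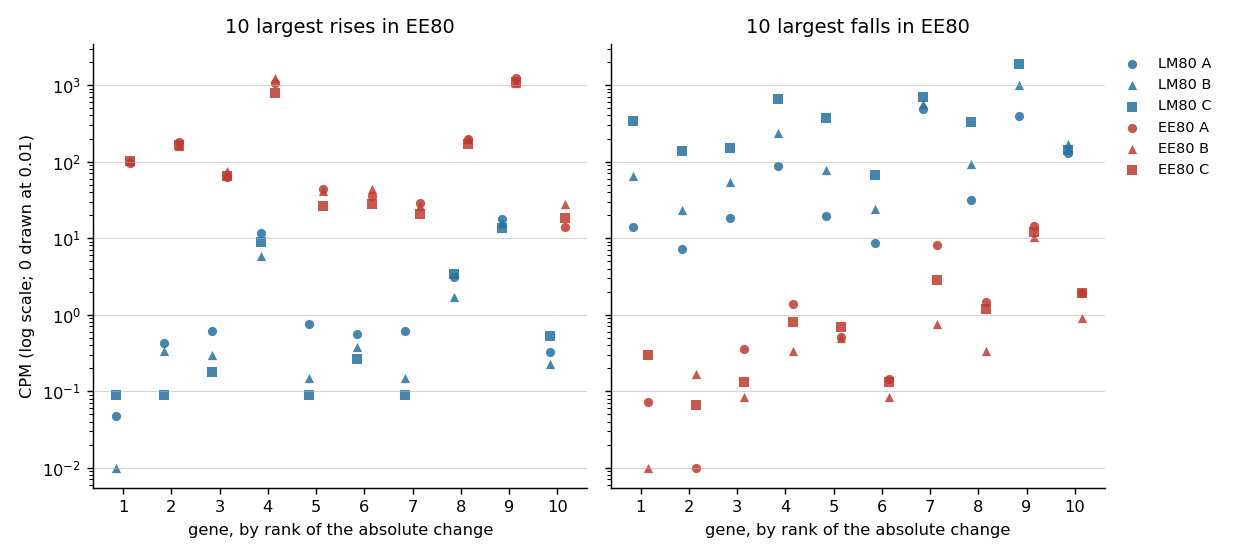
CPM by library (log axis, values of 0 drawn at 0.01) of the 10 genes with the largest rises (left) and the 10 with the largest falls (right), by rank of the absolute log2 fold change. LM80 libraries are blue and EE80 libraries red, with circles, triangles and squares for replicates A, B and C. In the right panel LM80 A lies below the other LM80 libraries in all 10 genes.

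LM80 A was the late-morning library nearest to the evening for more genes than the others were. Over the 12283 called genes, LM80 A was the LM80 library closest to the EE80 mean for 44.4 %, LM80 C for 33.3 % and LM80 B for 22.3 %. For the 1038 genes over 2-fold higher in LM80 these shares were 53.4 %, 33.7 % and 12.9 %. Among evening libraries EE80 A was the closest to the LM80 mean for 40.8 % of the called genes, EE80 C for 32.6 % and EE80 B for 26.6 %. The median SD of log2 CPM was 0.17 in LM80 and 0.14 in EE80, and 278 and 214 genes had an SD over 1.

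Few genes were present at one time and near absent at the other. With at most 3 counts over the libraries of one time and at least 100 over those of the other, 12 genes were present in EE80 alone and 2 in LM80 alone. All 14 of them were called, beside 51.8 % of all tested genes. They were picked by the same counts that were tested, so these calls are no further evidence. Of the 12, which include Potri.015G140800, 2 had no count at all in LM80. With a floor of 3 counts over the group in place of 0, they were 53.5-fold and 97.1-fold higher in EE80. The exact (Clopper-Pearson) lower limits for counting error were 42.8-fold and 78.3-fold. By the same floor, the 1 gene with no count in EE80 was 92.2-fold lower there, with a lower limit of 74.6-fold. In 1 of the 12 genes a single library held over 80 % of the counts. Apart from Potri.015G140800, with 5708 counts, these genes were weakly expressed, and the median count over the 12 genes was 165.

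Called genes were found on every chromosome at similar rates. The share of tested genes that was called ran from 49.0 % on chromosome 3 to 57.1 % on chromosome 9, and was 35.1 % for the 97 genes on scaffolds outside the chromosomes. The share of called genes that was higher in EE80 ran from 44.5 % on chromosome 17 to 59.4 % on chromosome 12. Exon number, counted as exon blocks merged over the transcripts of a gene, went with both direction and size. Of genes with 1 exon, 51.0 % of 3513 were called, and 49.5 % of these were higher in EE80. Of genes with 8 or more exons, 54.9 % of 7353 were called, and 57.3 % were higher in EE80. With the library totals as scaling these shares of calls were 73.1 % and 86.0 %. Large changes were more frequent in genes with 1 exon, where 10.2 % were over 2-fold higher in EE80 and 6.66 % over 2-fold higher in LM80, than in genes with 8 or more, where 5.11 % and 2.98 % were. Level differs between these classes, with a median average log2 CPM of 2.195 and 4.24. Within the band of average log2 CPM from 4 to 6, the median absolute log2 fold change was 0.44 for 1 exon, 0.36 for 2 to 3, 0.32 for 4 to 7 and 0.28 for 8 or more exons.

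Genes next to each other on a chromosome tended to move together. Among 5190 pairs of next genes that did not overlap and were both called, 3077 (59.3 %) moved in one direction, where the frequencies of the directions alone multiply to 50.1 %. Over pairs that include overlapping genes the share was 59.4 % for next genes, 54.3 % at 2 genes apart, 53.1 % at 3, 51.6 % at 5, 50.9 % at 10 and 52.1 % at 50. The Wilson intervals drawn for these shares cover counting error only and treat pairs that share a gene as separate. The share also differed by orientation. With a gap of up to 1000 bases, divergent pairs, whose 5′ ends face each other, moved together in 71.4 % of 91 pairs (Wilson 95 % interval 61.4 to 79.7 %). Same-strand pairs did so in 65.7 % of 327 (60.4 to 70.7 %), and convergent pairs in 49.0 % of 367 (44.0 to 54.1 %). Without 1 of the 6 libraries the share for next genes was 59.3 to 60.1 %. With the library totals as scaling it was 74.7 %, where most calls have one direction to begin with.

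**Figure D5:**
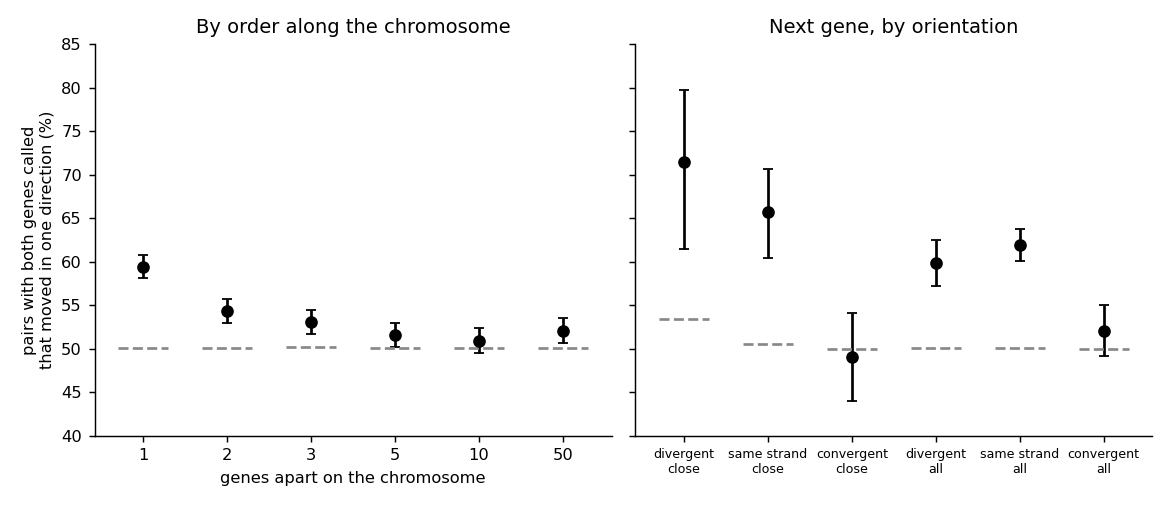
Percentage of pairs of called genes that moved in one direction, by the number of genes apart (left) and by orientation of next genes whose spans do not overlap, for gaps of up to 1000 bases (close) and for all gaps (right). Points are shares, bars Wilson 95 % intervals and dashed lines the share that the frequencies of the directions multiply to. The share is 59.4 % for next genes, 50.9 % at 10 genes apart and 52.1 % at 50.

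Genes with large changes were also found side by side. Of the 1492 genes over 2-fold higher in EE80, 261 (17.5 %) had a next gene in the same set, where 9.16 % of all tested genes had a next gene in that set. Of the 1038 over 2-fold higher in LM80, 180 (17.3 %) did, beside 6.64 % of all tested genes. Of these pairs 96 of 138 (69.6 %) and 62 of 96 (64.6 %) lay on one strand, as did 53.2 % of all pairs of next genes tested. The longest run of consecutive genes was one of 5 higher in LM80 on chromosome 8 (10807252 to 10838207), with log2 fold changes of −3.58 to −2.58 and mean levels from 0.678 to 584 CPM in LM80 and 0.0459 to 86.2 CPM in EE80. LM80 A was the lowest LM80 library for all 5, which without it were all called with log2 fold changes of −3.91 to −2.85. Its removal widens the gap for these 5 and does not test their falls. The longest run higher in EE80 had 4 genes, all on the minus strand of chromosome 2 (14525793 to 14549344), with log2 fold changes of 1.26 to 3.60. LM80 A was the lowest LM80 library for these 4 too, and without it they were called at 1.22 to 3.00, of which 3 passed the 2-fold test. Neighbouring copies that share sequence lose reads that align to both, which the counting left out, so levels in such groups can be understated.

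The change between the times was next set beside that in the drier groups, which share no library with it. At 50 % SWCg 99.4 % of the 1492 genes over 2-fold higher in EE80 were called in the same direction, and at 30 % SWCg 99.1 %, beside 52.3 % and 52.2 % of all tested genes that were called there with the sign they had at 80 %. Their median log2 fold change was 2.15 at 80 %, 2.15 at 50 % and 2.09 at 30 % SWCg. The 1038 genes over 2-fold higher in LM80 had medians of −1.99, −2.03 and −1.90. Across all tested genes the fold changes correlated at 0.933 with those at 50 % and 0.916 with those at 30 %, a description over genes, which are not independent replicates. The test of the difference itself called 0 genes (0 %) for 80 % against 50 % SWCg and 0 (0 %) for 80 % against 30 % SWCg in edgeR's quasi-likelihood test. At an unadjusted p below 0.05 there were 1050 (4.43 %) and 2040 (8.61 %) genes, and the smallest adjusted p were 0.984 and 0.0912. DESeq2's Wald test called 2 and 24 genes, and edgeR's likelihood ratio test with robust dispersion 11 and 44. Without LM80 A the numbers at an unadjusted p below 0.05 were 2791 and 3294, with 0 and 1 genes past the adjusted threshold, and without LM80 B they were 702 and 1459, with 0 and 1.

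Genes called at 80 % SWCg alone were mostly weak changes. There were 1157 genes called between LM80 and EE80 and at neither other water level, and their median absolute log2 fold change was 0.44. The rule for this set leaves out nearly all large changes, which were called at the other levels too, so weak changes follow from it. Of the 1157 genes, 919 (79.4 %) had the same sign at both other levels and 41 the opposite sign at both. Of all tested genes, 87.1 % had the same sign at 50 % SWCg and 85.5 % at 30 %, each level taken alone. The 2-fold test was passed by 8 of the 1157, beside 2530 of the 23700 tested genes. None of the 13 clock genes had an unadjusted p below 0.05 in the test of either difference, where the smallest were 0.109 for PRR5 Potri.012G005900 against 50 % SWCg (log2 fold change 4.62 at 80 % and 4.13 at 50 %) and 0.0861 for GI Potri.005G196700 against 30 % SWCg (1.94 at 80 % and 2.202 at 30 %). The intervals do not show that these genes changed alike.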

How the data were processed

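The authors trimmed 100-base single-end reads with Trimmomatic, aligned them to P. trichocarpa v4.1 with HISAT2 2.2.1 and, per the file headers, counted them per gene with featureCounts 2.0.1. Raw counts were deposited. The command set no options beyond annotation and output, and by that tool's defaults strand was ignored, though the kit was stranded, and reads that align to several places or overlap several genes were left out. Reads from a gene and an overlapping antisense partner cannot be told apart, and the named clock genes overlap no other gene. The deposited table also gives the exonic length of each gene.

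The main fit took the 23700 genes whose average log2 CPM lay between −2 and 9, and was made over all 18 libraries and 6 groups with edgeR 4.0.16 (TMM, quasi-likelihood test, Benjamini-Hochberg adjusted p below 0.05), while the 226 genes of 9 or more were tested in a fit with no upper limit. CPM refers to counts of the tested genes times the TMM factor, and log2 CPM uses a prior count of 2. Differences between water levels were tested as interaction contrasts. Alternatives used DESeq2 1.42.0, other scalings and filters, 6 libraries, a replicate block and 1 library left out at a time. Genes were named by a fixed rule (the clock genes, the largest changes among called genes with a mean of at least 10 CPM, the largest differences in CPM), with at most 2 IDs without a name in each direction. Genes and lists were chosen with earlier results of these data known. Planned lists by gene description, marker genes and promoter motifs were not run, since no descriptions or genome were used here, and 5 further clock genes were not analysed here. All per-sample columns were used. Totals per library ranged from 17348563 to 48110546 counts. Counts are of reads without molecular identifiers, so counting intervals cover counting error only.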

Additional observations from a re-analysis of the deposited data

How the results depend on the processing

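Of the values recomputed for the main comparisons, 107 stayed within 1.5 times or on the same side of their test and 9 did not. Of those for single genes and shares, 402 stayed, 13 moved and 1 turned, most of these under the scaling by library totals. In the tests of the difference between water levels, 0 calls became 2 (against 50 % SWCg) and 24 (against 30 %) with DESeq2's Wald test and 11 and 44 with robust dispersion and the likelihood ratio test. The scaling by library totals, chosen after the data were seen, gave 11809 genes higher in EE80 and 2815 higher in LM80, 2 calls against 30 % SWCg, and a log2 fold change of 0.30 for PRR9 Potri.002G179800, which was −0.04 with TMM. That scaling moves all changes by construction, and the median went from 0.03 to 0.37. Other settings put the share of called genes higher in EE80 between 49.4 and 55.1 %.

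With 1 of the 6 libraries left out, 10860 to 12023 genes were called, 5627 to 6384 higher in EE80 and 5193 to 5639 higher in LM80, and 2242 to 2573 changed over 2-fold. Between 86.8 and 90.7 % of the calls remained with the same direction, and none turned. Of the abundant genes, 135 to 148 were higher in LM80. The difference between water levels had 0 calls against 50 % SWCg throughout and 0 to 1 against 30 %. The cause of these differences was not tested.

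The labels do not say whether the replicate letters pair the samples across the times. Deviations from the group means correlated between the times at 0.30 in the A libraries, 0.06 in the B libraries and 0.12 in the C libraries. The value for the A libraries was the highest of all pairings, and A libraries with other letters were at −0.23 to −0.09. EE80 C correlated best with LM80 B (0.18). A replicate block in the 6 libraries gave 11958 calls, against 11282 in these libraries without the block. Of the 11958, 6070 were higher in EE80 and 5888 in LM80, with 2608 over 2-fold. The block changed the call of no named gene, and whether the letters are pairs was not tested. Pairs of libraries of one group differed beyond sampling noise (chi-square per degree of freedom of 11.2 to 38.1), so none was counted as a duplicate.

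Depth limits the genes with few counts, where the median standard error of a log2 fold change was 0.44 in the class of average log2 CPM from −2 to 0. Groups of 3 libraries cannot reach an exact permutation p under 0.1. Time of day and the sequencing tag of the headers cannot be told apart. The planned restriction of gene lists to well expressed members was not run, as no lists by description were used.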
